A study of Homo sapiens with 60 samples.

Results

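Interferon-stimulated genes were followed through osimertinib treatment and withdrawal in lung adenocarcinoma lines with mutant EGFR. The set held 48 of the 19712 genes in the deposited tables. They were chosen by name from the literature on the interferon response, with earlier results of these data known. Of them, 4 were transcriptional regulators (STAT2, IRF1, IRF7 and IRF9) and the rest antiviral effectors and their modifiers. All 48 were present and all 48 passed the filter on low counts in each line. RNA was sequenced from 4 established lung adenocarcinoma lines (PC9, HCC827, H1975 and HCC2935), each grown in 5 arms of 3 libraries that the labels call biological triplicates, which gave 60 libraries in 20 groups. Osimertinib is an irreversible inhibitor of mutant EGFR, used throughout at 500 nM.

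DMSO cells received vehicle for 24 h, and acute cells received osimertinib for 24 h, both after having been kept without drug in parallel with the persisters for 21 days. Drug-tolerant persisters (DTPs) were the cells alive after 21 days in osimertinib. Short-washout cells were persisters returned to drug-free medium for 24 h. Long-washout cells were persisters kept without drug until growth resumed, which took 7 days in PC9, 4 days in HCC827, 3 days in H1975 and 10 days in HCC2935, so the length of the washout differs with the line. Each line stands for 1 tumour, and H1975 differs from the other lines in carrying a gatekeeper mutation in EGFR beside its activating one.

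Type I interferon signals through its receptor and JAK kinases to a complex of STAT2, IRF9 and a partner STAT, which binds the interferon-stimulated response element in the promoters of these genes. IRF7 amplifies the response and IRF1 carries much of the response to interferon gamma, and their products bind viral RNA, stop translation, hold virions at membranes or tag proteins with ISG15. Cells that are not infected keep a low tonic expression of the set that depends on self nucleic acids and on secreted interferon.

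The response element is visible in the promoters of some of the members described in detail, and 5 stretches are printed to show it. Promoter windows from RefSeq on build GRCh38.p14, reaching 250 bases before and 50 bases after each gene start, were matched by symbol for 39 of the 48 members. The core searched for was GAAA followed by any 2 bases and a second GAAA, on either strand. It stood in a window of 28 of these 39 members (71.8%) and of 1195 of all 27305 genes with a window (4.38%). A gene with several windows counted once, if any of them held a match. Capitals mark each match, which begins with GAAA on the strand shown or with TTTC where the match lies on the other strand. The stretches are ISG15 at chr1:1013355-1013434 (plus strand), where 2 matches overlap, IFI6 at chr1:27672241-27672320 (minus strand), IFI27 at chr14:94110606-94110685 (plus strand), IFIT1 at chr10:89392485-89392564 (plus strand) and IFITM1 at chr11:313965-314039 (plus strand).
ISG15: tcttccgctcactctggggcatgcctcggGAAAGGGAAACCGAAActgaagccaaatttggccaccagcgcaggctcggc
IFI6: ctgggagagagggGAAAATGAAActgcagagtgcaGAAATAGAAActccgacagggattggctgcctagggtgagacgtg
IFI27: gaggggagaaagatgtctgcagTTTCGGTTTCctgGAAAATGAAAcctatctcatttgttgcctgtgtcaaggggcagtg
IFIT1: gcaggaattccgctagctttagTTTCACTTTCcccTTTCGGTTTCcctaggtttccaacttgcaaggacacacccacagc
IFITM1: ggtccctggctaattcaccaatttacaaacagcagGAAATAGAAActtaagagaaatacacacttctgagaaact

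STAT2, IRF1, IRF9, OAS1, CMPK2, UBE2L6, HERC6, SAMD9L, IFI35, XAF1 and SP110 held no match in their windows, which says only that these letters are absent from those 300 bases. Several members lie in clusters of near copies, in GENCODE 29 coordinates on GRCh38. IFITM1 (chr11:313506-315272) and IFITM2 (chr11:307631-315272) overlap on the same strand, and IFIT1 (chr10:89392546-89406486), IFIT2 and IFIT3 overlap LIPA on the opposite strand. RSAD2 (chr2:6865806-6898239) overlaps CMPK2 (chr2:6840570-6866635), and PARP9 overlaps DTX3L, in both cases on opposite strands. The sources used here do not state that counting used strand, so the split of reads within these pairs, and among the IFITM, IFIT, OAS and MX paralogs, is uncertain.

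Estimated counts summed to 34.7 to 47.1 M per library in PC9, 38.7 to 49.1 M in H1975, 17.7 to 25.1 M in HCC827 and 18.6 to 25.6 M in HCC2935, so low values rest on fewer reads in the last pair of lines. Every library correlated best with another library of its own line. Epithelial markers summed to 1831 to 18035 CPM (counts scaled to a common library total), with all 5 detected in all 60 libraries. The 7 leukocyte markers summed to 10.1 to 172 CPM, most of it CD68 (up to 167) and ITGAM (up to 19.1), while MS4A1 was at 0 in every library and PTPRC and CD3E, which define leukocytes and T cells, reached at most 4.51 and 0.211. The 5 fibroblast markers summed to 13.5 to 440.1 CPM, with COL1A1 the highest at up to 419 and DCN at most 1.39. DUSP6, a readout of the ERK signalling that osimertinib blocks, was at 42.5, 48.6 and 58.5 CPM in PC9 under DMSO and at 0.572, 0.349 and 1.45 CPM after acute drug. Libraries of 1 group did not always sit together, and PC9 long washout 3 was the highest of its 3 replicates in 47 of the 48 members. H1975 DMSO 2 was the lowest of 3 in 43 members and H1975 acute 1 in 40, HCC827 DMSO 2 and HCC2935 DMSO 2 were each the lowest in 39, HCC827 DTP 1 was the lowest in 36 and HCC2935 DMSO 3 was the highest in 36. PC9 long washout 2 was the lowest in 42, HCC827 short washout 2 the highest in 38 and H1975 DMSO 1 the highest in 36. The counts of members called between 2 arms of a line are given with and without these libraries where they rest on them. In bulk RNA, a gene rising in each cell and a gene carried by more of the surviving cells cannot be told apart.

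Under DMSO the lines started from very different levels. PC9 had the lowest mean of the 4 lines in 44 of the 48 members and stood under 1 CPM in 16 of them, whereas H1975 had the highest mean in 22, HCC2935 in 15 and HCC827 in 10. The median of the 48 member means was 2.94 CPM in PC9, 15.9 in HCC827, 28.7 in H1975 and 19.0 in HCC2935. A test of equal DMSO level in the 4 lines called all 48 members, where 89.3% of all 16583 genes tested were called, so the share is close to a background in which most genes differ (edgeR quasi-likelihood F test, Benjamini-Hochberg adjusted p under 0.05).

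The widest ranges belonged to IFI27, XAF1 and IFITM2. IFI27, a mitochondrial protein strongly induced by interferon, stood at 0.031, 0 and 0.147 CPM in PC9, 14.5, 9.71 and 16.7 in HCC827, 88.4, 31.7 and 34.4 in H1975 and 13.5, 11 and 15.8 in HCC2935. All PC9 libraries were below all others, and HCC827 and HCC2935 overlapped (range of the 4 lines 9.54 on the log2 scale, adjusted p = 9.14e-16). IFITM2, which blocks virus entry at endosomal membranes, stood at 0.155, 0.0953 and 0 CPM in PC9 and 49.4, 59.4 and 52 in H1975 (range 9.16, adjusted p = 7.48e-29). Per length, the secreted glycoprotein LGALS3BP was the highest member in PC9 at 236, 224 and 216 TPM (the deposited abundance, scaled by transcript length), and IFITM3 the highest in H1975 at 433, 433 and 424 TPM. ISG15, the ubiquitin-like modifier of the set, was sparse, at 1.04, 0.605 and 1.11 CPM in H1975 under DMSO, and no library of the series passed 1.99 CPM. Its annotated span overlaps 2 genes on the opposite strand. Whether the deposited counts assign all of its reads to it was not tested. Its level, its called line difference under DMSO and its absence of acute and DTP calls are therefore uncertain.

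Averaged over the 48 members on the log2(CPM + 1) scale, the level under DMSO was 2.30 ± 0.04 in PC9 (mean ± SD over 3 libraries, as for all values of this average), 4.08 ± 0.24 in HCC827, 4.73 ± 0.35 in H1975 and 4.31 ± 0.31 in HCC2935. In PC9 it stood at 3.30 ± 0.04 after acute drug and 4.20 ± 0.09 in DTPs. That was the lowest DTP mean of the 4 lines, against 4.84 ± 0.26 in HCC827, 4.33 ± 0.07 in H1975 and 4.40 ± 0.11 in HCC2935. The PC9 and H1975 DTP libraries overlapped. In H1975 the average went the other way after the first day, from 5.40 ± 0.37 after acute drug to 4.33 ± 0.07 in DTPs, below the DMSO mean. The lowest H1975 DMSO library, at 4.35, lay within the DTP range of 4.25 to 4.39. Summed CPM of the members was not lower in H1975 DTPs, at 2427 to 3066 against 2087 to 2821 under DMSO. These averages describe the libraries, and the tests below are on single genes.

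**Figure D1:**
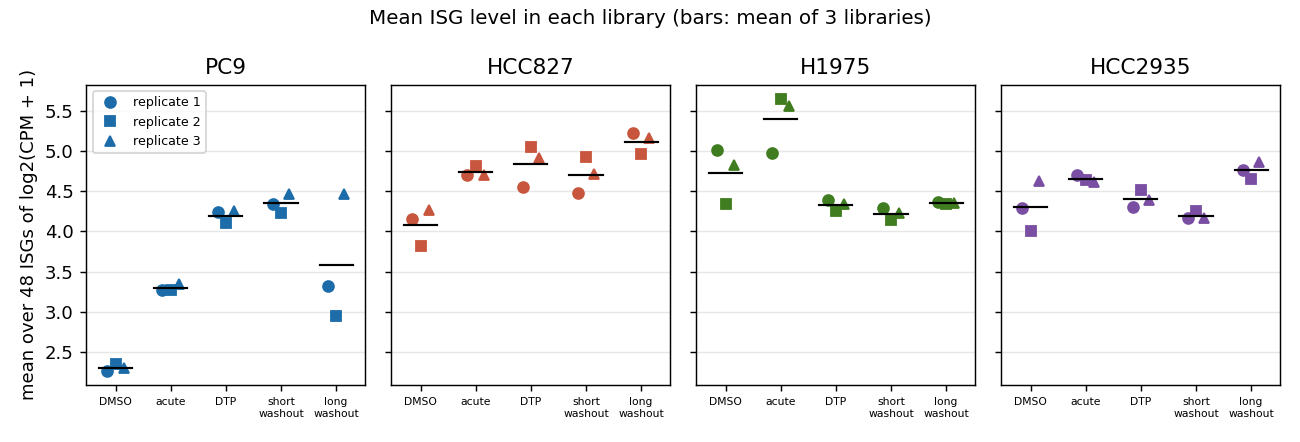
Mean of log2(CPM + 1) over the 48 interferon-stimulated genes in each library, by line and arm, with points for libraries and horizontal bars for the mean of 3 libraries. PC9 starts lowest at 2.30 and its 3 long-washout libraries spread from 2.94 to 4.46, and H1975 is highest after acute osimertinib at 5.40.

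Acute osimertinib raised more members than it lowered in every line. The members called higher in all 4 lines numbered 10 and those lower 1, where 8.15% and 11.5% of the 13484 genes tested in every line were. In PC9, 31 members rose and 2 fell, against 34.5% of all genes called higher and 31.7% lower (66.2% called in all), and the median member log2 fold change was 1.64 against 0.07 over all genes tested (1.58 with RSAD2 and XAF1, which had 3 counts or fewer over the DMSO libraries, set to a floor of 3 counts there). HCC827 had 26 members higher and 2 lower (18.7% and 20.2% of all genes, 39% in all), with a median of 0.74 against 0.02. In H1975, 26 rose and 2 fell (27.8% and 23.8%, 51.6% in all), with a median of 0.56 against 0.10. The summed fibroblast markers of H1975 moved with this change, from between 53.1 and 124 CPM under DMSO to between 206 and 440.1 acutely, and their part in it was not tested. HCC2935 moved least, with 19 higher and 3 lower (24.9% and 22.2%, 47.1% in all) and a median of 0.42 against 0.07. Calls are at a Benjamini-Hochberg adjusted p under 0.05 over all genes of a line in edgeR's quasi-likelihood test, and fold changes are given with their standard error. Without H1975 DMSO 2 the H1975 count was 23 higher and 3 lower, without H1975 DMSO 1 it was 28 and 1, and without H1975 acute 1 it was 32 and 1. Without HCC827 DMSO 2 the HCC827 count was 19 and 1, and the HCC2935 count was 13 and 3 without HCC2935 DMSO 2 and 24 and 2 without HCC2935 DMSO 3. Summed epithelial markers rose acutely in PC9 (9067 to 9340 CPM under DMSO, 16688 to 18035 acutely) and H1975 (2529 to 3325, 3667 to 4544). They fell in HCC827 (7658 to 9321, 5481 to 6324) and HCC2935 (9806 to 10781, 4718 to 5758), and their part was not tested.

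In DTPs the lines parted. PC9 persisters had 43 members higher and 1 lower (background 35.7% and 33.5%, 69.2% in all), with a median of 2.44 against 0.06 over all genes. HCC827 persisters had 26 higher and 3 lower (23% and 20.4%, 43.4% in all) and a median of 0.71 against 0.03, with 31 higher and 3 lower without HCC827 DTP 1 and 19 and 4 without HCC827 DMSO 2. In HCC827 the summed fibroblast markers moved with the members, from between 13.5 and 25.4 CPM under DMSO to between 66.2 and 144 in DTPs. After long washout they stood between 86 and 134. COL3A1 among them went from 0, 0.146 and 0.0454 to 23, 7.36 and 6.34 CPM in DTPs. The epithelial markers of HCC827 fell, summing to 7658 to 9321 CPM under DMSO and 2679 to 3846 in DTPs. CDH1 among these went from 986, 1127 and 1081 to 496, 215 and 178 CPM. The part of these markers in the HCC827 result was not tested. H1975 persisters had 10 higher and 24 lower (26% and 25.7%, 51.7% in all), with a median of −0.53 against 0.02, and 7 higher and 27 lower without H1975 DMSO 2 and 11 and 17 without H1975 DMSO 1. Epithelial markers moved with this change, as CDH1 went from 342, 124 and 307 CPM under DMSO to 5.26, 7.93 and 8.87 in DTPs and EPCAM from 248, 109.7 and 224 to 16.6, 23.4 and 20.6, while the 5 epithelial markers summed to 2529 to 3325 CPM under DMSO and 1836 to 2477 in DTPs. Summed epithelial markers were also lower in HCC2935 DTPs (6802 to 7611 CPM against 9806 to 10781). In PC9 DTPs they were near DMSO (9038 to 9212 against 9067 to 9340). The part of these markers in the results was not tested. HCC2935 persisters had 14 higher and 11 lower (27% and 25.8%, 52.8% in all) and a median of −0.01 against 0.04, with 16 and 7 without HCC2935 DMSO 3 and 14 and 11 without HCC2935 DMSO 2. With all libraries, the HCC2935 counts were near the shares of all genes in both directions. The summed leukocyte markers of HCC2935, mostly CD68, stood between 65.8 and 92 CPM under DMSO and between 10.1 and 12.2 in DTPs, and their part in the result was not tested. The acute, DTP and long-washout comparisons share the DMSO libraries of a line, so their calls are set side by side only. In PC9, 31 members were higher in both comparisons (27.4% of all genes) and 12 were higher in DTPs alone (7.66%). In H1975, 10 were higher in both (17.1% of all genes), 12 were higher acutely and not called in DTPs (9.33%) and 18 were lower in DTPs alone (8.64%). IRF7, OAS1, HERC6 and EPSTI1 were higher acutely and lower in DTPs (1.32%).

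**Figure D2:**
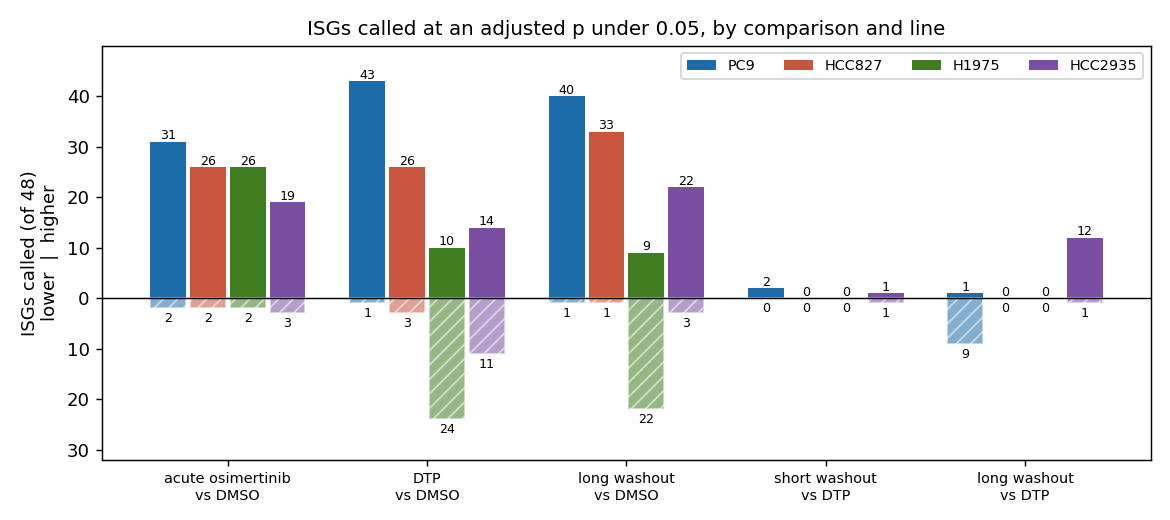
Number of the 48 members called higher (above 0) and lower (below 0) in each line and comparison, by edgeR's quasi-likelihood test at an adjusted p under 0.05. In DTPs, PC9 has 43 higher and 1 lower whereas H1975 has 10 higher and 24 lower.

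The changes differed between lines in tests of the difference itself. The test of a line difference in the acute change called 23 of the 48 members (41.4% of all genes), a count near the background. The test of a line difference in the DTP change called 47 (63.9% of all genes). ISG15 was the member not called in the latter.

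The regulators rose acutely in most lines, all 4 of them in PC9 and HCC827 (34.5% and 18.7% of all genes). In H1975 and HCC2935 all but IRF1 rose (27.8% and 24.9%). STAT2, the subunit that carries the activation domain of the interferon complex, was at 16.9, 21.1 and 25.9 CPM in PC9 under DMSO, 121, 129 and 105 after acute drug and 130.2, 169 and 148 in DTPs. All treated libraries were above all DMSO libraries (log2 fold change 2.48 ± 0.33, adjusted p = 1.16e-05; DTP log2 fold change 2.83 ± 0.33, adjusted p = 4.21e-06). In H1975 it was at 49.5, 35.2 and 43.3 CPM under DMSO, 146, 187 and 255 acutely and 84.3, 43.7 and 95.3 in DTPs. The acute libraries were the highest, and the second DTP library fell within the DMSO range (acute log2 fold change 2.21 ± 0.32, adjusted p = 6.09e-05; DTP log2 fold change 0.79 ± 0.31, adjusted p = 0.0475). In HCC2935 the libraries stood at 43.1, 42.8 and 62.4 CPM under DMSO and 169, 182 and 204 acutely, without overlap (log2 fold change 1.94 ± 0.17). HCC827 showed a like step, from 74.6, 56.9 and 72.7 to 197, 226 and 184 CPM (1.56 ± 0.16). STAT2 was called higher in DTPs of all 4 lines.

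IRF9, the DNA-binding partner of STAT2, rose acutely in the 4 lines with log2 fold changes of 0.89 ± 0.35 in PC9, 0.83 ± 0.25 in HCC827, 1.53 ± 0.26 in H1975 and 0.98 ± 0.24 in HCC2935. In PC9 it went on from 13, 9.67 and 8.57 CPM acutely to 31.3, 31.2 and 31.5 CPM in DTPs, the latter well above the 5.98, 5.96 and 5.000 CPM of DMSO (DTP against DMSO log2 fold change 2.49 ± 0.36, adjusted p = 2.69e-05). In H1975 DTPs it was at 14.4, 10.04 and 12.6 CPM, inside the spread of the DMSO libraries at 17.7, 8.12 and 13.8 CPM, and was not called (log2 fold change -0.11 ± 0.25). IRF7, the amplifier of type I interferon transcription, was low throughout. It stood at 1.83, 2.24 and 1.62 CPM in PC9 under DMSO, 5.06, 4.81 and 4.64 acutely and 10.2, 11.1 and 10.1 in DTPs, each group above the one before (DTP against DMSO log2 fold change 2.48 ± 0.32, adjusted p = 8.99e-06). In H1975 it was at 4.03, 2.96 and 4.45 CPM under DMSO, 7.34, 12 and 11 acutely and 3.06, 2.07 and 1.34 in DTPs. The DTP libraries overlapped DMSO at their upper end and were called lower (acute log2 fold change 1.42 ± 0.30, adjusted p = 0.00132; DTP log2 fold change -0.83 ± 0.31, adjusted p = 0.0351). IRF1, which acts without the STAT2 complex, moved mainly in PC9, from 17.6, 13.8 and 11 CPM under DMSO to 52.6, 58.2 and 92.1 acutely (log2 fold change 2.27 ± 0.22, adjusted p = 7.35e-07), and its range of the acute change over the lines was 2.11. In H1975 and HCC2935 its acute groups overlapped DMSO, with log2 fold changes of 0.16 ± 0.21 and 0.34 ± 0.16.

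Among the RNA sensors and helicases, DHX58 (LGP2, a regulator of RIG-I-like sensing) was the member that rose acutely in all 4 lines. It went from 1.3, 1.24 and 1.56 to 4.57, 5.86 and 3.85 CPM in PC9 (1.81 ± 0.30) and from 11.3, 8.74 and 12.5 to 25.9, 20.3 and 19.1 CPM in HCC2935 (1.04 ± 0.19), with no overlap in either line. IFIH1 (MDA5, a sensor of long double-stranded RNA) was called acutely in no line, and its highest library was 3.97 CPM. In H1975 DTPs IFIH1 fell, from 1.9, 1.1 and 2.95 to 0.484, 0.716 and 0.383 CPM (log2 fold change -1.91 ± 0.45, adjusted p = 0.00246). DDX60, a helicase that promotes RNA sensing, was not called acutely in any line and then went opposite ways in DTPs. It rose in PC9 (1.45 ± 0.36) and HCC2935 (1.02 ± 0.23) and fell in H1975, from 59, 25.9 and 51.2 to 25.6, 16 and 16.6 CPM (log2 fold change -1.24 ± 0.31, adjusted p = 0.00365).

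The oligoadenylate synthetases, which activate RNase L when they bind double-stranded RNA, did not move as a block. OAS3 was the exception of the family and fell acutely in 3 lines. In HCC2935 it stood at 146, 169 and 146 CPM under DMSO and 30.9, 33.6 and 38.6 acutely, a gap of several times the spread within either group (log2 fold change -2.13 ± 0.17, adjusted p = 1.21e-07). HCC827 went from 142, 130.4 and 135 to 65.8, 62.5 and 61.3 CPM (-1.12 ± 0.29) and H1975 from 149, 110.2 and 135 to 65.4, 106 and 88.4 CPM (-0.59 ± 0.20), both without overlap. In PC9 the acute libraries at 16.5, 13.8 and 23.1 CPM overlapped the DMSO libraries at 22.3, 27.7 and 17.7 CPM, with no call (log2 fold change -0.33 ± 0.30). OAS1 went the other way over the same day, rising in PC9 (1.83 ± 0.49), HCC827 (0.96 ± 0.29) and H1975 (1.51 ± 0.28). In DTPs OAS1 was up in PC9, from 2.01, 3.89 and 2.59 to 23.9, 24.2 and 25.8 CPM (log2 fold change 3.13 ± 0.50, adjusted p = 6.72e-05). It was down in H1975, from 12.8, 5.81 and 10.4 to 3.39, 4.03 and 3.04 CPM (log2 fold change -1.48 ± 0.29, adjusted p = 7.08e-04).

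OAS2 gave the family's largest change in PC9, from 0.124, 0.0715 and 0.176 CPM under DMSO to 0.372, 0.524 and 0.419 acutely and 16.2, 10.9 and 13.9 in DTPs. The acute rise did not pass the test and the DTP rise did (acute log2 fold change 1.85 ± 1.62, adjusted p = 0.328; DTP log2 fold change 6.81 ± 1.21, adjusted p = 1.73e-04). OASL, a synthetase homolog without the enzyme activity, fell in H1975 DTPs from 45.5, 20.5 and 38 to 4.64, 5.69 and 4.57 CPM (log2 fold change -2.81 ± 0.30, adjusted p = 5.40e-06) and in HCC2935 DTPs from 5.3, 4.51 and 4.45 to 1.97, 1.87 and 1.22 CPM (log2 fold change -1.47 ± 0.34, adjusted p = 0.0017). In all, the 4 synthetases were higher in PC9 DTPs (35.7% of all genes). In H1975 DTPs 3 were lower (25.7%), as were 3 in HCC2935 DTPs (25.8%).

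The translation inhibitors held the set's most uniform fall. EIF2AK2 (PKR), the kinase that stops initiation on binding double-stranded RNA, was lower acutely in all 4 lines. PC9 went from 192, 163 and 171 CPM under DMSO to 77.8, 79.8 and 94.5 acutely (log2 fold change -1.05 ± 0.09, adjusted p = 2.68e-07) and HCC2935 from 167, 147 and 164 to 107, 92.6 and 110.0 (-0.59 ± 0.09). The steps in HCC827 (-0.44 ± 0.15) and H1975 (-0.27 ± 0.09) were smaller, and in all 4 lines the acute libraries lay below all DMSO libraries. The IFIT proteins, which bind foreign 5′ RNA ends and block its translation, rose in the same PC9 cells. IFIT2 was at 4.92, 7.1 and 5.85 CPM in PC9 under DMSO and 60.4, 92.2 and 103 acutely (log2 fold change 3.84 ± 0.44, adjusted p = 2.76e-06), and rose also in HCC827 (1.72 ± 0.24) and HCC2935 (1.09 ± 0.15). IFIT1 rose acutely in PC9, from 1.8, 1.76 and 1.71 to 8.2, 8.58 and 10.4 CPM (log2 fold change 2.38 ± 0.45, adjusted p = 3.20e-04), and the test of the line difference called it. In HCC2935, where same-numbered DMSO and acute libraries deviated together, IFIT1 was not called in the reported fit of the line's 15 libraries. It was called higher in a fit of these 6 libraries alone with the replicate block (blocked log2 fold change 0.60 ± 0.22, adjusted p = 0.0445), as was MX2 (0.47). IFIT3 and PARP9 lost their calls in that fit (adjusted p = 0.0601 and 0.0543). The fits differ in both the libraries and the block. In H1975 DTPs all 5 members of this role were lower (25.7% of all genes), IFIT1 from 75.2, 44 and 67.3 to 27.1, 24.1 and 24.8 CPM (log2 fold change -1.31 ± 0.20, adjusted p = 9.11e-05). IFIT5 was the least mobile of the family, with acute log2 fold changes of -0.12 ± 0.19 in PC9, 0.15 ± 0.12 in HCC827, -0.26 ± 0.12 in H1975 and -0.03 ± 0.15 in HCC2935, none of them called.

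The membrane restriction factors, which block virus entry (IFITM1, IFITM2 and IFITM3) or tether new virions (BST2, tetherin), held some of the largest changes in PC9. All 4 of them were called higher there acutely and in DTPs (34.5% and 35.7% of all genes). IFITM1 was at 0, 0.191 and 0.0294 CPM under DMSO, 2.57, 4.16 and 4.83 acutely and 12.5, 18.7 and 21.7 in DTPs. Every step was without overlap (acute log2 fold change 5.51 ± 1.04, adjusted p = 2.90e-04; DTP log2 fold change 7.71 ± 1.00, adjusted p = 9.74e-06), and the fold rests on a DMSO level of few reads. In HCC2935, IFITM1 stood at 2.67, 1.81 and 10.2 CPM under DMSO and 0.377, 1.09 and 2.45 in DTPs, where 1 DTP library exceeded the lowest DMSO library (log2 fold change -1.91 ± 0.65, adjusted p = 0.0208). IFITM3 rose acutely in all 4 lines, in H1975 from 198, 193 and 196 to 336, 441 and 405 CPM (log2 fold change 1.02 ± 0.13, adjusted p = 2.29e-05) and in PC9 from 12, 14.9 and 15.5 to 78, 81 and 75.4 CPM (2.47 ± 0.27). IFITM2 rose acutely in PC9 (4.26 ± 0.57), HCC827 (2.16 ± 0.53) and H1975 (0.53 ± 0.11), and its value in HCC2935 was -0.04 ± 0.18. BST2 climbed in DTPs of 3 lines. In HCC827 it was at 6.75, 4.64 and 12.3 CPM under DMSO, 11.1, 18.1 and 10.3 acutely and 32.7, 83.3 and 64.1 in DTPs, so acute and DMSO overlapped and the DTP libraries lay above both (DTP log2 fold change 2.95 ± 0.40, adjusted p = 4.62e-05). In H1975, where 24 members were lower in DTPs, BST2 was higher, at 251, 227 and 282 CPM against 101, 139.6 and 102 under DMSO (log2 fold change 1.14 ± 0.14, adjusted p = 1.42e-05).

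Of the induced GTPases, GBP1, a guanylate-binding protein that also answers to interferon gamma, rose in DTPs of all 4 lines. PC9 went from 2.57, 1.64 and 1.21 CPM under DMSO to 32, 31.5 and 33.6 in DTPs (log2 fold change 4.19 ± 0.34, adjusted p = 2.93e-07), and H1975 from 19.1, 30.5 and 20.4 to 69.9, 71.9 and 45.8 (1.42 ± 0.26). HCC2935 took longer, with acute libraries at 9.79, 11 and 11.8 CPM inside the DMSO spread of 10.2, 6.56 and 13 and DTP libraries at 42.4, 41.4 and 27 above both (log2 fold change 1.91 ± 0.21, adjusted p = 1.67e-06). MX1, which traps viral nucleocapsids, rose acutely in HCC827 (1.03 ± 0.18) and H1975 (1.49 ± 0.27). In PC9 it was at 3.93, 7.87 and 6.38 CPM under DMSO, 10.1, 10.1 and 12.1 acutely and 34.5, 28 and 32.1 in DTPs, where the acute rise did not pass the test (acute log2 fold change 0.83 ± 0.49, adjusted p = 0.15; DTP log2 fold change 2.39 ± 0.50, adjusted p = 6.31e-04). MX2 was lower in HCC2935 DTPs at 12.9, 14.3 and 10.3 CPM against 23.6, 21.3 and 41.7 under DMSO (log2 fold change -1.19 ± 0.25, adjusted p = 8.43e-04), while it was higher in DTPs of the other lines.

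RSAD2 (viperin) and CMPK2, neighbours that together supply an antiviral nucleotide, differed widely between the lines in DTPs. RSAD2 had 1 estimated count over the 3 PC9 DMSO libraries and 183 over the 3 DTP libraries, a ratio of 168 with an exact 95% interval of 29.7 to 6650 that covers counting error only, and 6 counts acutely (ratio 5.86, 0.71 to 269). In HCC827 it was at 0.0519, 0.0488 and 0.0907 CPM under DMSO, 0.5005, 0.665 and 0.755 acutely and 1.12, 2.39 and 3.14 in DTPs, each group above the one before (DTP log2 fold change 5.01 ± 0.59, adjusted p = 1.38e-05). In H1975 it stood at 11.3, 3.63 and 8.95 CPM under DMSO, 5.41, 21 and 20.5 acutely and 1.23, 0.658 and 0.957 in DTPs. The acute and DMSO libraries overlapped, and all DTP libraries lay below both (DTP log2 fold change -3.09 ± 0.55, adjusted p = 3.14e-04). CMPK2 fell further in the same cells, from 10.8, 1.7 and 7.73 to 0.374, 0.194 and 0.191 CPM (log2 fold change -4.74 ± 0.66, adjusted p = 4.37e-05), the lowest value of any member in any line. The range of the RSAD2 change in DTPs over the 4 lines was 10.0 on the log2 scale (adjusted p = 2.19e-10).

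In the ISG15 conjugation group, UBE2L6, the conjugating enzyme for ISG15, rose acutely and in DTPs of all 4 lines. It went from 21.2, 17.7 and 27.8 CPM in HCC2935 under DMSO to 61.6, 57.3 and 48 acutely and 55.7, 62.6 and 65.9 in DTPs (acute log2 fold change 1.36 ± 0.15, adjusted p = 3.15e-06; DTP log2 fold change 1.48 ± 0.15, adjusted p = 8.85e-07). ISG15 itself was called in no line acutely or in DTPs, and at its low count the standard errors were wide, as in PC9 DTPs (0.92 ± 0.45). USP18, which removes ISG15 and restrains the receptor, fell in PC9, from 6.32, 6.39 and 5.77 CPM under DMSO to 3.63, 2.54 and 4.02 acutely (log2 fold change -0.85 ± 0.18, adjusted p = 8.39e-04). In DTPs USP18 was lower in H1975 (-0.88 ± 0.22) and in HCC2935, where it stood at 17.5, 16.2 and 16.5 CPM against 27.9, 25.6 and 29.8 (log2 fold change -0.72 ± 0.10, adjusted p = 3.19e-05). The ligases HERC5 and HERC6 differed, as HERC5 was called acutely in no line and HERC6 rose in PC9 (1.52 ± 0.25), H1975 (0.67 ± 0.22) and HCC2935 (0.98 ± 0.16).

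The ADP-ribosylation members shifted with the line. All 4 rose acutely and in DTPs of PC9 (34.5% and 35.7% of all genes), PARP9 from 11.1, 10.7 and 10.1 CPM under DMSO to 48.7, 47 and 49.5 in DTPs (log2 fold change 2.21 ± 0.28, adjusted p = 8.28e-06). PARP12, a mono-ADP-ribosyltransferase, was lower in DTPs of the other 3 lines, in H1975 at 25.3, 27.8 and 30.3 CPM against 64.1, 48.4 and 59.9 (log2 fold change -1.06 ± 0.19, adjusted p = 2.84e-04). In HCC827 DTPs it was at 54.8, 54.2 and 43.1 CPM against 70.6, 66.4 and 76.1 (log2 fold change -0.46 ± 0.13, adjusted p = 0.0095). PARP14 rose acutely in all 4 lines, with log2 fold changes from 0.81 ± 0.19 in H1975 to 1.5 ± 0.28 in PC9. DTX3L, the ligase that partners PARP9, was higher acutely and lower in DTPs of HCC827, at 171, 151 and 177 CPM under DMSO, 234, 217 and 243 acutely and 136, 129 and 119.6 in DTPs (acute 0.46 ± 0.10; DTP -0.34 ± 0.10).

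The ubiquitin ligases TRIM21, a cytosolic antibody receptor, and TRIM22, a restriction factor, both rose acutely in all 4 lines. TRIM22 gave the larger steps, in HCC2935 from 16, 10.6 and 25.7 CPM under DMSO to 99.8, 83.3 and 87 acutely and 62, 101 and 73.8 in DTPs (acute log2 fold change 2.4 ± 0.26, adjusted p = 2.57e-06; DTP log2 fold change 2.19 ± 0.26, adjusted p = 4.00e-06). H1975 went from 2.38, 1.52 and 1.84 to 7.48, 9.93 and 10.1 CPM acutely and stood at 7.57, 4.01 and 7.82 in DTPs (2.26 ± 0.29 and 1.74 ± 0.28), all above DMSO. TRIM22 was 1 of 5 members (of 48) higher in DTPs of all 4 lines, with STAT2, GBP1, UBE2L6 and LGALS3BP, where 5.47% of the 13484 genes tested in every line were. SAMD9 and its paralog SAMD9L, which restrict poxviruses and translation, rose in DTPs of PC9 and HCC2935. SAMD9L went from 47.5, 44 and 63.8 CPM in HCC2935 under DMSO to 74.6, 96.4 and 76.7 acutely and 159, 184 and 169 in DTPs, each group above the one before (log2 fold change 1.74 ± 0.14, adjusted p = 6.10e-08). SAMD9 fell in DTPs of HCC827 (-0.60 ± 0.13) and H1975, in the latter from 145, 57.9 and 110.5 to 43.7, 44.8 and 34.4 CPM (log2 fold change -1.36 ± 0.31, adjusted p = 0.00187).

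Of the 10 other induced genes, all 10 were higher in PC9 DTPs (35.7% of all genes) and 6 in HCC827 DTPs (23%). In H1975 DTPs 2 were higher and 4 lower and in HCC2935 DTPs 1 was higher and 2 lower. In these lines 25.7% to 27% of all genes were called in each direction. The 4 lower in H1975 were above that share and the other counts of these lines below it. IFI6, a mitochondrial survival protein, was at 0.527, 0.787 and 0.441 CPM in PC9 under DMSO, 8.49, 9.32 and 6.79 acutely and 49.5, 49.2 and 57.7 in DTPs, in steps without overlap (acute log2 fold change 3.79 ± 0.76, adjusted p = 5.01e-04; DTP log2 fold change 6.46 ± 0.77, adjusted p = 4.72e-06). IFI6 did not pass the test in DTPs of H1975 (0.39 ± 0.18) or HCC2935 (-0.18 ± 0.44). XAF1, a partner of XIAP in apoptosis, had 3 estimated counts over the PC9 DMSO libraries, 118 acutely and 1081 in DTPs, ratios of 38.4 (exact 95% interval 12.8 to 189) and 330 (113 to 1600) with counting error only. IFI27 rose in HCC827 from 14.5, 9.71 and 16.7 CPM under DMSO to 31.4, 43.1 and 21 acutely and 96.7, 178 and 171 in DTPs (DTP log2 fold change 3.47 ± 0.31, adjusted p = 1.13e-06).

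IFI44 showed the opposition of PC9 and H1975 plainly. PC9 was at 0.124, 0.262 and 0.0294 CPM under DMSO and 15.8, 13.8 and 15.3 in DTPs (log2 fold change 6.67 ± 0.93, adjusted p = 1.85e-05), whereas H1975 was at 79, 35 and 66.1 and 10.3, 13.9 and 10.9 CPM (log2 fold change -2.37 ± 0.29, adjusted p = 1.60e-05). EPSTI1 did the same with an acute rise in H1975 first, at 2.14, 0.673 and 1.62 CPM under DMSO, 2.05, 8.52 and 6.1 acutely and 0.286, 0.29 and 0.407 in DTPs. The first acute library overlapped DMSO and all DTP libraries were below (acute log2 fold change 1.91 ± 0.48, adjusted p = 0.00404; DTP log2 fold change -2.19 ± 0.53, adjusted p = 0.00317). PLSCR1, a phospholipid scramblase, fell in HCC2935 DTPs from 88.9, 74 and 95.7 to 39, 33.7 and 35.1 CPM (log2 fold change -1.25 ± 0.13, adjusted p = 9.80e-07). LGALS3BP, a secreted partner of galectins, rose acutely and in DTPs of all 4 lines, in DTPs by log2 fold changes of 1.31 ± 0.15 in PC9, 1.17 ± 0.11 in HCC827, 0.91 ± 0.13 in H1975 and 0.52 ± 0.10 in HCC2935.

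**Figure D3:**
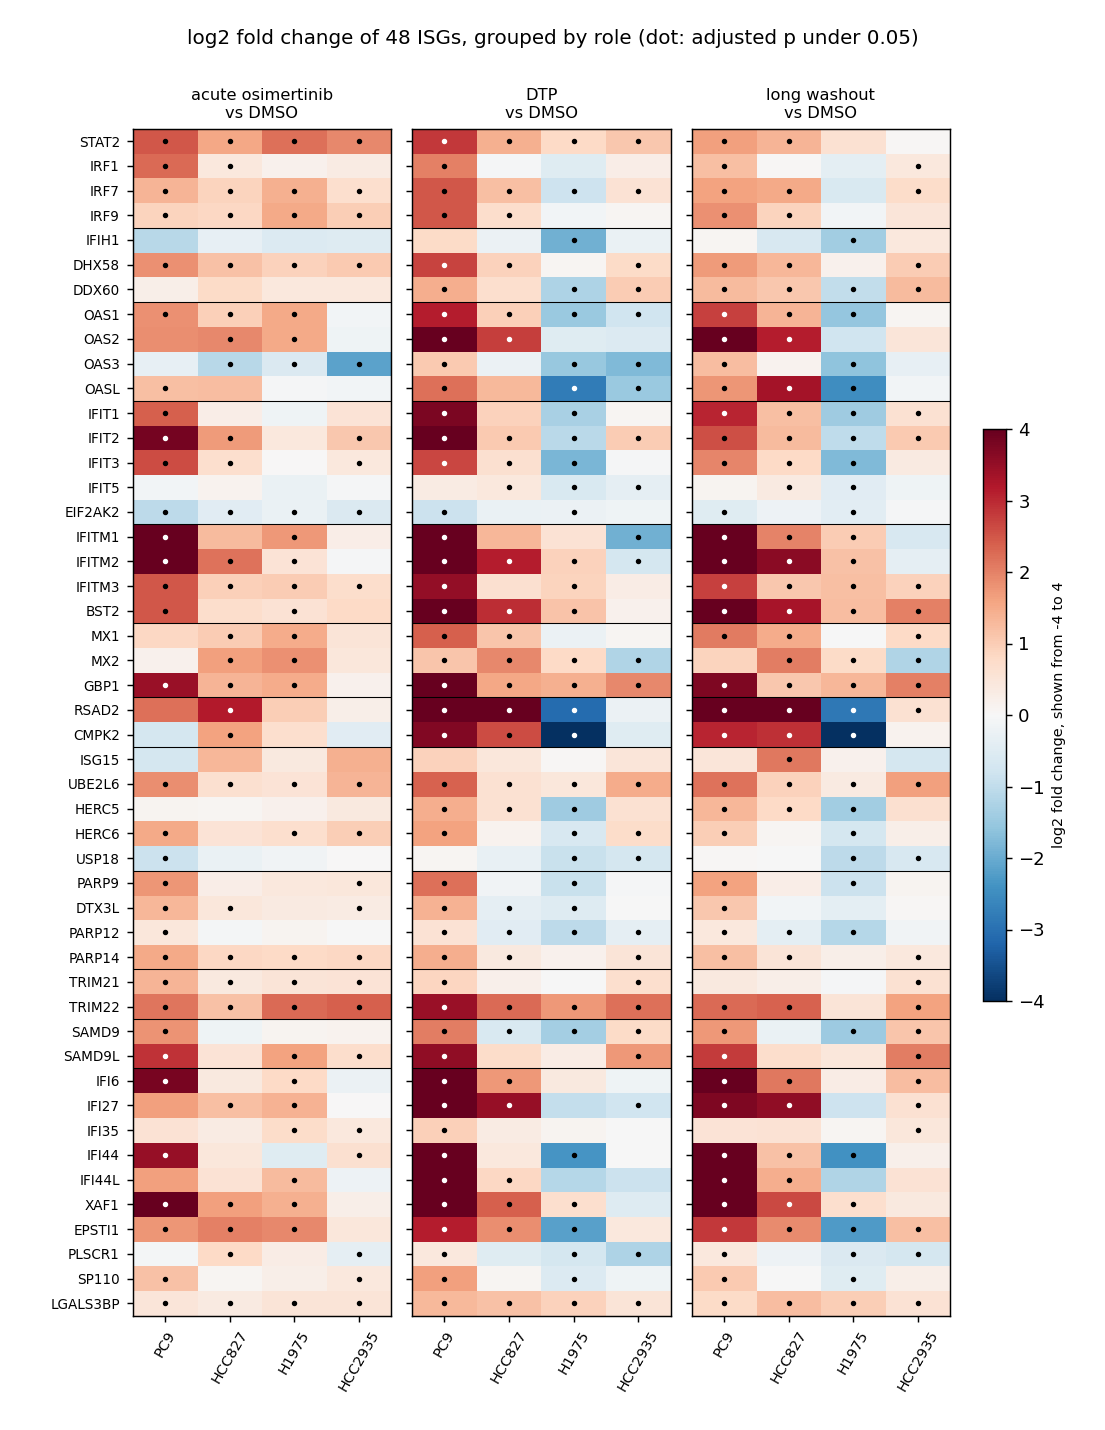
Log2 fold change of each of the 48 members in each line and comparison as a heat map, red higher and blue lower, with colours clipped at −4 and 4 and dots on changes called at an adjusted p under 0.05. In DTPs the PC9 column is red for 47 of 48 members, and CMPK2 in H1975, at -4.74, is the lowest value.

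**Figure D4:**
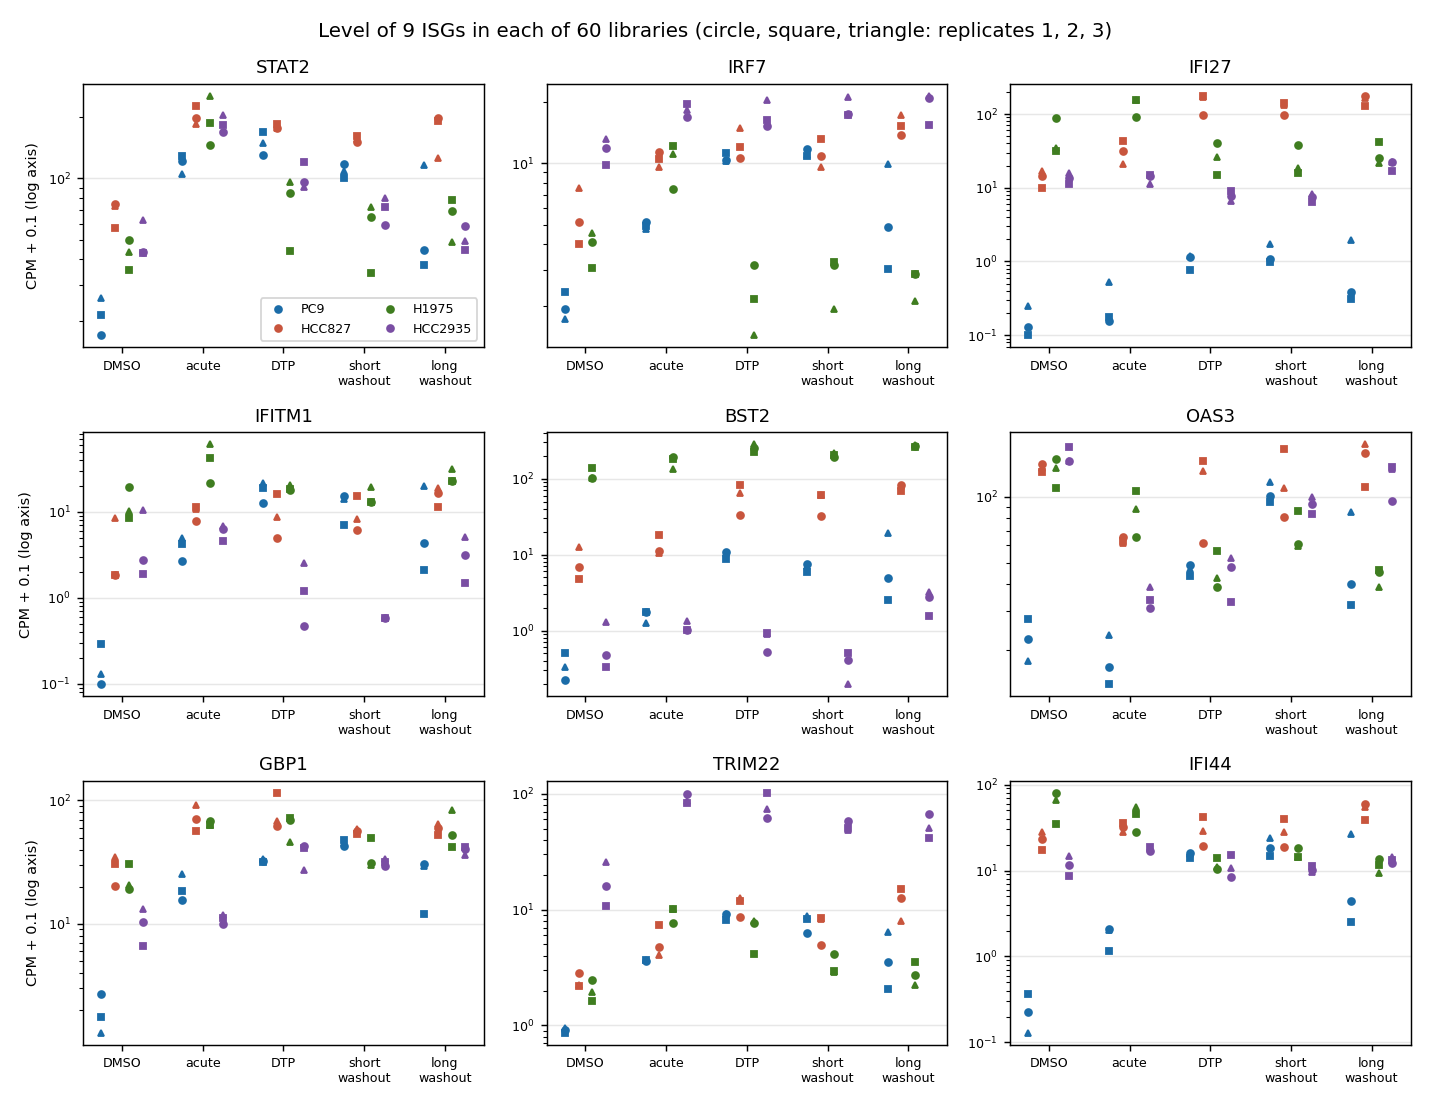
CPM + 0.1 of 9 members in each library on a log axis, by line and arm, with 1 point per library. OAS3 falls acutely in HCC2935 to between 30.9 and 38.6 CPM, and IFITM1 in PC9 rises from at most 0.191 CPM under DMSO to between 12.5 and 21.7 in DTPs.

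One day without drug changed few members. Short washout against DTP called 2 higher and 0 lower in PC9 (3.87% and 2.05% of all genes, 5.92% in all) and 1 higher and 1 lower in HCC2935 (2.32% and 0.816%, 3.14% in all; 1 and 2 when scaled by library size alone). It called 0 members in HCC827 (0% of all genes, with 1 member at an unadjusted p under 0.05, 0 by DESeq2 and 0 without HCC827 short washout 2 or without HCC827 DTP 1) and 0 in H1975 (0.0585%, with 8 at an unadjusted p under 0.05 and 1 by DESeq2). OAS3, which acute drug had lowered in HCC2935, was the member higher in both PC9 and HCC2935. It went from 48.6, 43.5 and 46.8 CPM in PC9 DTPs to 101, 94.4 and 117 at short washout (log2 fold change 1.17 ± 0.29, adjusted p = 0.0327) and from 47.9, 33 and 52.6 to 92.3, 83.8 and 99.9 in HCC2935 (log2 fold change 1.05 ± 0.16, adjusted p = 0.00243), without overlap. EIF2AK2, also lowered acutely, rose in PC9 from 89.7, 95.5 and 102 to 136, 133 and 124 CPM (log2 fold change 0.46 ± 0.09, adjusted p = 0.014). IFIT2 fell in HCC2935 from 34.7, 53.1 and 39.3 to 22, 21.2 and 25.2 CPM (log2 fold change -0.90 ± 0.15, adjusted p = 0.00485). The PC9 count was 0 or 1 when any 1 of its 6 libraries was left out, and it was 18 (12 higher and 6 lower, with 22.2% of all genes called) in a fit of those 6 libraries alone and 13 (9 and 4, 13.9%) with the replicate block there.

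In H1975 the same-numbered short-washout and DTP libraries deviated together, and a fit of these 6 libraries with the replicate number as a block called 9 members (11.6% of all genes). OAS3 (0.59) and OASL (0.78) were higher, and STAT2 (-0.38), BST2 (-0.30), GBP1 (-0.77), PARP14 (-0.52), TRIM22 (-0.95), SAMD9L (-0.42) and IFI44L (-1.26) were lower at short washout, in blocked log2 fold changes. STAT2 in H1975 stood at 84.3, 43.7 and 95.3 CPM in DTP libraries 1 to 3 and 64.3, 34 and 72.4 in short-washout libraries 1 to 3, lower within each pair although the groups overlap.

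After the long washout the calls against DTPs differed by line. The line difference in this change was not tested, and the length of the washout also differs with the line. In PC9, 1 member was higher and 9 were lower than in DTPs (20.4% and 16.8% of all genes, 37.2% in all), with a median member log2 fold change of −0.45 against −0.02 over all genes. The PC9 count of lower members was near the share of all genes, and the count of higher members was below it. HCC2935 had 12 higher and 1 lower (6.82% and 4.94%, 11.8% in all) and a median of 0.32 against 0.00. HCC827 and H1975 had 0 members called (0% and 0.0065% of all genes), with 6 and 3 members at an unadjusted p under 0.05 and 0 and 1 by DESeq2. The HCC827 count was also 0 without HCC827 DTP 1. STAT2 was lower in both of the lines with calls, at 58, 44.3 and 49.4 CPM in HCC2935 against 95.9, 121 and 90.7 in DTPs (log2 fold change -1.02 ± 0.16, adjusted p = 0.00136). Short and long washout share the DTP libraries of a line.

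The PC9 result turned on 1 library. Long-washout libraries 1 and 2 were each below the DTP mean in 47 of 48 members, with median differences of -0.90 and -1.24 on the log2 scale, and library 3 was below it in 14, with a median of 0.26. STAT2 was at 44.5, 37.5 and 116 CPM in these libraries against 130.2, 169 and 148 in DTPs (log2 fold change -1.18 ± 0.31, adjusted p = 0.0101), and IFI6 at 12.9, 8.48 and 77.2 against 49.5, 49.2 and 57.7, with no call (-0.67 ± 0.55). The ERK target DUSP6 was at 3.72, 11.5 and 1.15 CPM in the same 3 libraries, and the proliferation gene MKI67 at 399, 445 and 267, so library 3 also had the lowest values of both state genes. It was the PC9 library whose best-correlated library lay in another arm, PC9 short washout 3, whereas long-washout libraries 1 and 2 matched each other. Whether its label is right was not tested, nor was the part of the state genes in the result. Without library 3 the comparison called 38 members, 1 higher and 37 lower (48.8% of all genes). Without library 1 it called 4, and without library 2 it called 5. With all 3 libraries, IFIT2 fell furthest, at 23, 15.6 and 68.9 CPM against 102, 95.8 and 93.3 (log2 fold change -1.45 ± 0.39, adjusted p = 0.0106), followed by TRIM22 (-1.18 ± 0.29). EIF2AK2 was the member that rose, at 117, 122 and 132 CPM against 89.7, 95.5 and 102 (log2 fold change 0.36 ± 0.09, adjusted p = 0.00785).

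**Figure D5:**
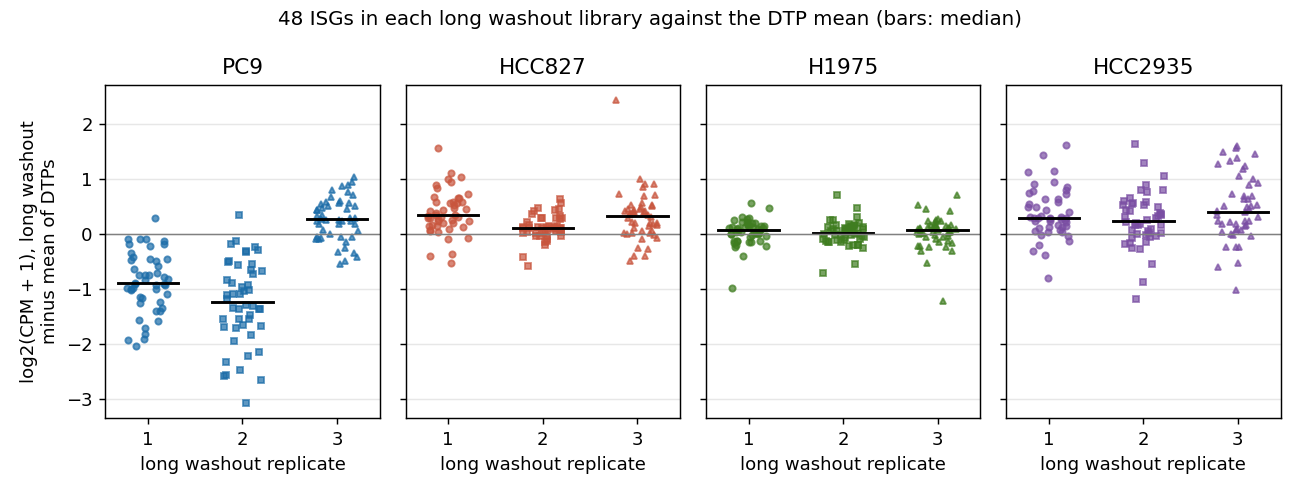
Difference of each long-washout library from the DTP mean of its line on the log2 scale, with 1 point for each of the 48 members and a bar at the median. PC9 libraries 1 and 2 have medians of -0.90 and -1.24 and library 3 has 0.26, while the 3 HCC2935 libraries lie between 0.23 and 0.40.

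In HCC2935 the members that rose over the 10 days of washout included OAS3, IFI6 and IFI27. OAS3 was at 95.7, 137 and 134 CPM against 47.9, 33 and 52.6 in DTPs (log2 fold change 1.46 ± 0.16, adjusted p = 2.29e-04), still below the 146, 169 and 146 CPM of DMSO. IFI6 was at 25.9, 15.2 and 24.6 CPM against 4.4, 10.1 and 10.1 (log2 fold change 1.41 ± 0.43, adjusted p = 0.0449) and IFI27 at 22.2, 16.8 and 22.4 against 7.62, 8.83 and 6.59 (log2 fold change 1.41 ± 0.18, adjusted p = 4.77e-04), both without overlap. BST2 had the largest change of the 12, from 0.419, 0.817 and 0.7999 to 2.66, 1.43 and 3.15 CPM (log2 fold change 1.82 ± 0.57, adjusted p = 0.0474). The remaining members called higher were OASL, OAS1, RSAD2, EPSTI1, IFITM3, PLSCR1, IFI35 and SAMD9, with log2 fold changes from 0.35 to 1.37. The count was 12 without long-washout library 1 and between 5 and 7 without any other library of the 6.

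Against DMSO, most members still stood higher at the end of the long washout in PC9 and HCC827. PC9 had 40 higher and 1 lower (23.4% and 21.5% of all genes, 44.9% in all, with a median of 1.74 against 0.02), and 34 higher and 1 lower without library 3 and 42 and 1 when scaled by library size alone. Without PC9 long washout 2, 43 members were called in either direction. HCC827 had 33 higher and 1 lower (21.9% and 20%, 42% in all; median 1.13 against 0.02), and 30 and 1 without HCC827 DMSO 2. H1975 had 9 higher and 22 lower (27.3% and 26%, 53.3% in all; median −0.48 against 0.03), with 6 and 26 without H1975 DMSO 2 and 10 and 18 without H1975 DMSO 1. HCC2935 had 22 higher and 3 lower (22.5% and 20.8%, 43.3% in all; median 0.44 against 0.01), with 25 and 3 without HCC2935 DMSO 3 and 14 and 3 without HCC2935 DMSO 2.

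IFITM3, BST2, GBP1, UBE2L6 and LGALS3BP, 5 of the 48 members, were higher than DMSO in all 4 lines, against 3.34% of all genes. BST2 in H1975 was at 269, 260.2 and 279 CPM after long washout, above all DMSO libraries (log2 fold change 1.24 ± 0.14, adjusted p = 6.64e-06), and in HCC2935 at 2.66, 1.43 and 3.15 CPM against 0.37, 0.233 and 1.21 (log2 fold change 2.01 ± 0.57, adjusted p = 0.01). OAS2 in HCC827 was at 54.1, 27.1 and 37.5 CPM against 4.67, 4.05 and 4.99 (log2 fold change 3.14 ± 0.44, adjusted p = 6.76e-05). RSAD2 in H1975 remained low at 0.89, 1.11 and 1.28 CPM (log2 fold change -2.87 ± 0.54, adjusted p = 4.77e-04), and OASL likewise at 7.19, 5.51 and 5.95 CPM (log2 fold change -2.49 ± 0.30, adjusted p = 1.11e-05). In HCC2935, MX2 was at 16.7, 10.2 and 10.4 CPM (log2 fold change -1.2 ± 0.25, adjusted p = 0.00116) and PLSCR1 at 42.7, 54.6 and 58.6 CPM (log2 fold change -0.72 ± 0.13, adjusted p = 2.88e-04), both below DMSO. H1975 cells at this point had MKI67 at 146, 221 and 159 CPM and DUSP6 at 0.548, 0.417 and 2.64 CPM, against 779, 656 and 693 and 11.6, 7.65 and 10.3 under DMSO, although their washout is described as lasting until growth resumed. MKI67 was higher at the short washout of that line, at 358, 443 and 309.7 CPM.

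The other genes of the pathway were taken from a fixed list of 44 ligands, receptors, kinases, sensors, negative regulators and interferon gamma targets. This list was also chosen with earlier results of these data known. Between 34 and 36 of its genes could be tested in each line. Acutely, 20 were higher and 4 lower in PC9 (58.8% and 11.8% against 34.5% and 31.7%), 15 and 3 in HCC827 (41.7% and 8.33% against 18.7% and 20.2%), 12 and 3 in H1975 (35.3% and 8.82% against 27.8% and 23.8%), and 11 and 4 in HCC2935 (31.4% and 11.4% against 24.9% and 22.2%), in percent of the tested list and then of all genes. In DTPs the counts were 21 higher and 3 lower in PC9 (61.8% and 8.82% against 35.7% and 33.5%), 8 and 3 in HCC827 (22.2% and 8.33% against 23% and 20.4%), 7 and 8 in H1975 (20.6% and 23.5% against 26% and 25.7%), and 6 and 5 in HCC2935 (17.1% and 14.3% against 27% and 25.8%). The share higher in DTPs exceeded that of all genes in PC9 and was below it in the other 3 lines. Of 8 interferon ligands, 7 were too low to test in PC9, HCC827 and H1975 and all 8 in HCC2935, and IFNB1 was at 0, 0.0755 and 0 CPM in PC9 DTPs. The receptor subunit gene IFNGR1 was higher in DTPs of all 4 lines, with log2 fold changes of 1.3 ± 0.17 in PC9, 0.76 ± 0.12 in HCC827, 1.64 ± 0.18 in H1975 and 0.42 ± 0.10 in HCC2935. TLR3, the endosomal sensor of double-stranded RNA, rose acutely in the 4 lines, from 1.1 ± 0.23 in H1975 to 2.55 ± 0.27 in PC9. CGAS, the cytosolic DNA sensor, fell acutely in the 4 lines, from -1.65 ± 0.14 in PC9 to -0.81 ± 0.15 in HCC827, and was lower in DTPs of each. The interferon gamma target GBP2 rose acutely in the 4 lines, by 4.86 ± 0.34 in PC9 and 1.21 ± 0.19 in HCC2935. Of the 13484 genes tested in every line, 8.15% rose and 11.5% fell acutely in all 4. In DTPs, 5.47% were higher and 8.42% lower in all 4.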

How the data were processed

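RNA was sequenced from 60 libraries of 4 lines, prepared with an Illumina TruSeq mRNA kit and read in pairs on a HiSeq4000, per the labels. The authors deposited a table of estimated counts per gene, which need not be whole and were rounded here, and a table of log2(TPM + 0.01), whose TPM summed to 0.806 to 0.891 M per library. The submitters' processing notes name HISAT2 2.1.0, Salmon 0.8.2 and hg38 with no roles, and the annotation and the strand setting are not given in the sources used here. Samples were grouped by line and arm from the labels, and 0 sample columns were left out.

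Counts of each line's 15 libraries were fitted in edgeR 4.0.16 (R 4.3.3) with TMM scaling, the default low-count filter and the 5 arms as groups, and tested by quasi-likelihood with Benjamini-Hochberg adjustment over all genes tested, calling at 0.05. Line differences were tested in 1 fit of all 60 libraries. CPM are on the TMM scale of all 60 libraries. A DMSO sum of 1 to 3 counts gave a ratio with an exact 95% interval. Fits were checked on simulated counts.

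Members and lists were chosen with earlier results of these data known. Named were 12 fixed members, the 3 highest and 3 lowest called in each line and comparison among those averaging 1 CPM or more, and the 3 with the widest called range between lines. Members named outside this rule were chosen after their values were seen. Where replicates come from separate cultures is not stated beyond the word biological, so p-values measure the spread between these libraries.

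Deviations from group means of same-numbered libraries correlated above 0.1 in all 3 pairs for short washout against DTP in HCC827 (0.709, 0.419 and 0.535) and H1975 (0.251, 0.609 and 0.55), and for acute against DMSO in HCC2935 (0.196, 0.131 and 0.367). The pairing there comes from these correlations, not from the labels. Alternatives were RLE size factors, library size only, no filter, DESeq2 1.42.0, limma 3.58.1 on log2 TPM, each comparison's own 6 libraries, a replicate block, leaving out each library, and, added after these correlations were seen, the block with the own 6 libraries.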

Additional observations from a re-analysis of the deposited data

Results flagged for a closer look

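The size of the acute and DTP changes differed between the 4 lines for members named in the text, in a quasi-likelihood F test of the interaction of line and arm (edgeR, Benjamini-Hochberg over 16583 genes). For the acute change 23 of the 48 members were called (41.4% of all genes), and for the DTP change 47 (63.9%). The acute count is near the background.

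Among the members named by the fixed rule, 7 were called for the acute change, with adjusted p from 1.55e-08 to 0.0403. The ranges of the acute log2 fold change over the 4 lines were 2.11 for IRF1, 1.95 for OAS1, 2.55 for IFIT1, 5.23 for IFITM1, 4.31 for IFITM2, 0.86 for USP18 and 4.03 for IFI6. PC9 had the highest value in all but USP18, which was lowest in PC9.

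For the DTP change 13 were called, with adjusted p from 1.04e-11 to 0.00989. The ranges over the lines were 2.04 for STAT2, 2.52 for IRF1, 3.32 for IRF7, 2.6 for IRF9, 4.61 for OAS1, 5.08 for IFIT1 and 9.62 for IFITM1. They were 2.63 for MX1, 10.0 for RSAD2, 0.95 for USP18, 6.65 for IFI6, 4.93 for IFI27 and 9.04 for IFI44. PC9 had the highest of the 4 values for each of these 13, and H1975 the lowest for all of them but IFITM1 and IFI6, where HCC2935 was lowest. These values are changes from DMSO, where PC9 had the lowest average level over the 48 members. In DTPs the PC9 average was still the lowest of the 4 lines, at 4.20 against 4.33 to 4.84 on the log2(CPM + 1) scale. RSAD2 rests on 1 estimated count in PC9 under DMSO, so its range depends on how the fit treats low counts.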

How the results depend on the processing

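No named value changed direction past the threshold under any alternative run. All 23 counts of called members stayed within 1.5 times of their reported value under RLE size factors, library size only, no filter and a replicate block in the fit of a line. The counts that moved further were those against DTPs and 1 acute count. For PC9 at short washout, 2 members were called as reported, 4 by DESeq2, 1 by limma on log2 TPM, 18 in a fit of the own 6 libraries and 13 there with the replicate block. For PC9 at long washout against DTP, 10 became 2 with the own 6 libraries and 6 with the block. For HCC2935 the 2 at short washout became 6 by DESeq2, and the 13 at long washout became 7 with the own 6 libraries and 0 with the block. For H1975, 0 became 1 by DESeq2 at either washout, 9 with the own 6 libraries and the block at short washout, and the 28 acute calls became 17 with that block. Where the numbers pair libraries, the block in the own 6 libraries left 0 members called for HCC827 short washout, and for HCC2935 acute it called 22 where those libraries without it called 18, with 20 of the 22 also among the 22 reported. The cause of these moves was not tested. With 1 library left out, the count ran from 0 to 1 for PC9 and 0 to 1 for H1975 at short washout, from 4 to 38 for PC9 and from 5 to 12 for HCC2935 at long washout against DTP, and stayed within 1.5 times elsewhere. Library size alone shifted the median over all genes by 0.14 in PC9 DTPs and 0.12 in PC9 long washout against DMSO, where the higher share of the genes called moved by 15.1 points and the members stood at 42 higher and 1 lower. Over the named log2 fold changes with 1 library left out, 1679 kept their side of the threshold, 100 lost it and 27 gained it. Depth limits members under 1 CPM, as in PC9 under DMSO.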
